A study of Homo sapiens with 6 samples.

Results

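The genes described here are 10 that act in the choice of exons during pre-mRNA splicing. They are the SR protein genes SRSF2, SRSF3, SRSF5, SRSF6 and SRSF7, the kinase genes CLK1, CLK2 and CLK4, and the SR-like splicing factor genes TRA2A and TRA2B. They were chosen by name as a gene family, and all 10 were found among the 23228 genes of the count tables and among the 13408 genes tested. RNA was sequenced from HEC-1-A, a human endometrial adenocarcinoma cell line, in 3 control libraries and in 3 libraries of cells that received 20 µM SMIP34 for 24 h. SMIP34 is a small molecule that binds the scaffold protein PELP1. All cultures were grown in McCoy's 5A medium with serum, and all data come from this single line. By the study's methods, the controls received vehicle. The labels number the replicates and do not say whether they were separate cultures, so that p-values measure the spread between these libraries.

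SR proteins carry RNA recognition motifs and a tail rich in arginine and serine dipeptides. They bind exonic sequences and help the spliceosome to recognise the neighbouring splice sites. TRA2A and TRA2B bind purine-rich exonic enhancers and carry such tails at both ends. The CLK kinases phosphorylate the tails in the nucleus and release SR proteins from nuclear speckles, which sets how much of each factor is free to act. Most SR and TRA2 genes regulate themselves through a conserved exon with an early stop codon. When the encoded factor is abundant the exon is included, and the transcript is broken down by nonsense-mediated decay (NMD). CLK1 and CLK4 transcripts are also known to be kept in the nucleus with introns retained, so that a change of splicing can change the mature mRNA with no change of transcription.

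Such stop-carrying exons are shown because they decide what a gene's count stands for. An internal exon of an annotated NMD transcript that overlapped no coding exon of a protein-coding transcript and held the stop codon was found in GENCODE release 44, lifted to GRCh37, for 6 of the 10 genes, and none was found by this rule for SRSF2, SRSF5, CLK1 and CLK2. The longest such exon of each gene covered 456 bases in SRSF3 (chr6:36567598-36568053, plus strand), 268 bases in SRSF6 (chr20:42087793-42088060, plus strand) and 449 bases in SRSF7 (chr2:38976040-38976488, minus strand). It covered 836 bases in CLK4 (chr5:178046839-178047674, minus strand), 301 bases in TRA2A (chr7:23561751-23562051, minus strand) and 276 bases in TRA2B (chr3:185649365-185649640, minus strand). Each sequence below runs 5′ to 3′ from the first base of the exon to its stop codon, which is in capitals, as read from GRCh37.
SRSF3: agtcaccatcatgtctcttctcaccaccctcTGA
SRSF6: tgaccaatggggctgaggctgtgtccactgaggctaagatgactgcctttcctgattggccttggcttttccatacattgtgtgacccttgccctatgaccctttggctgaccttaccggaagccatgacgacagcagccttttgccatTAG
SRSF7: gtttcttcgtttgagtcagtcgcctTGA
CLK4: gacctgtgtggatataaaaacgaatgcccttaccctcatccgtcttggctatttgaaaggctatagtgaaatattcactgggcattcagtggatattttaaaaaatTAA
TRA2A: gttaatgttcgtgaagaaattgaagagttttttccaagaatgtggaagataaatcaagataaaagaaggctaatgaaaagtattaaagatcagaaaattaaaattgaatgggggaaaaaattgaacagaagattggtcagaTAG
TRA2B: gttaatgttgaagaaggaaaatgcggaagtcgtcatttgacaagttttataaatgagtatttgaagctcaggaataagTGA
The reading frame meets the stop after between 28 and 152 bases of the exon, the stop included. The gene annotation on which the reads were counted holds the SRSF3 and SRSF6 exons shown in full, where they make up 12.7% and 6.68% of the counted exon length. It holds no base of the SRSF7, CLK4, TRA2A and TRA2B exons shown. The rule also found shorter exons, of 98 bases in SRSF3 and of 69 and 276 bases in SRSF7. The annotation holds no base of these either. Reads that lie wholly within the exons that it does not hold were therefore not counted. NMD transcripts also share other exons with productive ones, so that the count of each of the 6 genes sums both kinds. GENCODE lists NMD transcripts for SRSF2 (2), SRSF5 (1) and CLK1 (2) as well, and none for CLK2. The counts of SRSF2, SRSF5 and CLK1 can therefore also hold both kinds. The tables give 1 value per gene, so that use of the stop-carrying exons was not measured.

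The libraries held between 19562711 and 22014835 counts on genes. The values were fractional read counts, since a read with more than 1 alignment or gene was split between them, and the counts of each of the 10 genes were fractional in at most 3 libraries. The spread within a group exceeded counting noise (chi-square per gene from 1.89 to 3.26). The epithelial markers EPCAM, CDH1, KRT8, KRT18 and KRT19 were all expressed, with a summed level from 2908 to 3011 CPM in control and from 2762 to 2775 CPM in SMIP34 libraries. KRT8 and KRT19 fell, by 0.12 and 0.17 on the log2 scale (edgeR adjusted p = 0.000809 and 1.54e-05). The sum of 6 markers of fibroblasts, smooth muscle, endothelium and immune cells lay between 7.99 and 9.66 CPM in all libraries, with COL1A2, PECAM1 and PTPRC at or near 0. Within this sum COL1A1 rose, with values between 2.71 and 3.13 CPM in control and between 3.84 and 4.53 CPM with SMIP34 (log2 fold change 0.50, edgeR adjusted p = 0.0151), and ACTA2 was at -0.37 and did not pass (adjusted p = 0.0939). The part of these markers in the results for the 10 genes was not tested. CPM are counts scaled to the library total, and such relative values cannot tell fewer transcripts per cell from a change in the rest of the RNA.

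After SMIP34, 3 of the 5 SR genes and both TRA2 genes had lower mRNA, and 2 of the 3 CLK genes had higher mRNA, all by small amounts. By the quasi-likelihood test of edgeR with an adjusted p below 0.05, 5 genes fell (SRSF3, SRSF6, SRSF7, TRA2A and TRA2B), 2 rose (CLK1 and CLK4), and SRSF2, SRSF5 and CLK2 did not pass. Of all genes tested, 34.6% passed in either direction, 17.2% as lower and 17.4% as higher. The 10 genes had a median absolute log2 fold change of 0.13, against 0.12 over all genes tested. None of the 10 passed an additional limit, an absolute log2 fold change over 0.5, with edgeR or with DESeq2, while 3.31% of all genes did so with edgeR. At an unadjusted p-value under 0.05, 8 of the 10 differed, 6 of them lower. The share of all genes at that limit is not given here, and it is no smaller than the 34.6% that passed after adjustment. The 3 values of each group did not overlap for 7 of the 10, against 44.5% of all genes tested. SMIP34 lay below for 5 (21.9% of all genes) and above for 2 (22.6% of all genes).

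**Figure D1:**
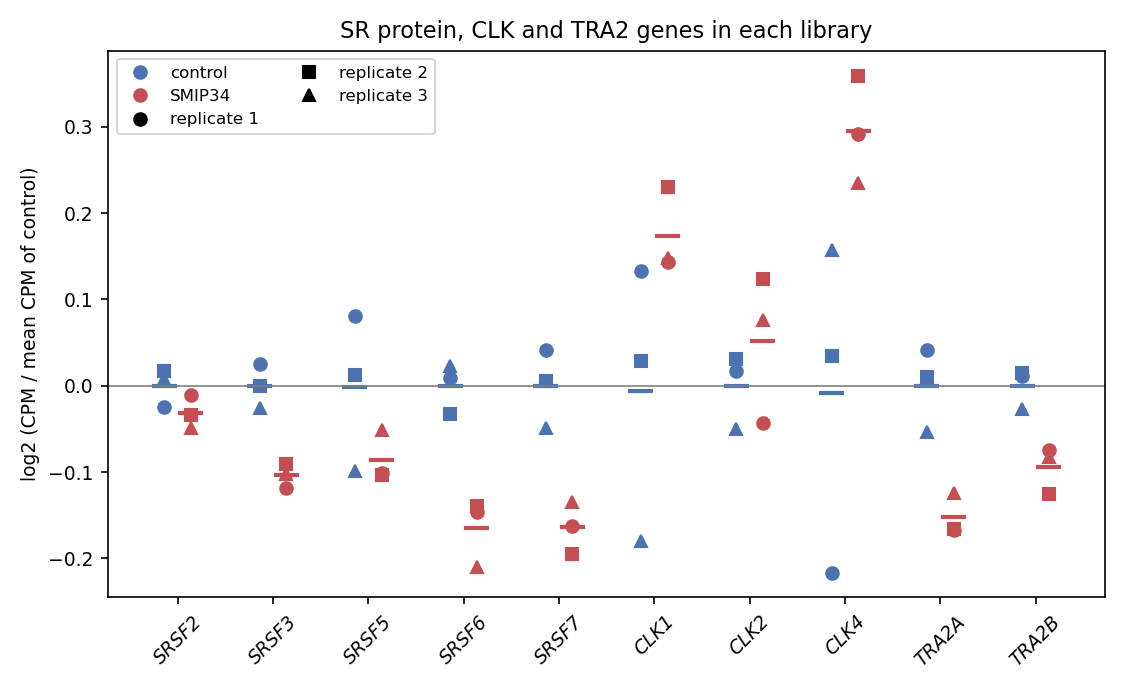
Level of each of the 10 genes in each library, as the log2 of its CPM over the mean CPM of the 3 control libraries. Blue points are control and red points SMIP34 libraries, marker shapes are replicate numbers, and short lines are group means. All SMIP34 points lie below all control points for SRSF3, SRSF6, SRSF7, TRA2A and TRA2B, and above them for CLK1 and CLK4, where control libraries spread the most.

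Among the SR proteins, SRSF3 (chromosome 6 of hg19, from 36562090 to 36572244) is one of the smallest members and was the most abundant of the 10. It stood at 472, 464 and 455 CPM in control replicates 1, 2 and 3, and at 427, 435 and 432 CPM in SMIP34 replicates 1, 2 and 3. The treated range ended under the control range. This was a log2 fold change of -0.10 (edgeR adjusted p = 0.0028, standard error 0.026), or -6.94%.

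SRSF7 (chromosome 2, from 38970741 to 38978636), the closest relative of SRSF3 by its RNA recognition motif and the member with a zinc knuckle, fell further. Its level was 179, 174 and 168 CPM in the controls and 155, 151 and 158 CPM in the treated libraries. The highest treated library lay under the lowest control. The log2 fold change was -0.16 (edgeR adjusted p = 0.000245, standard error 0.032), or -10.7%.

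SRSF6 (chromosome 20, from 42086504 to 42092244), a larger SR protein with a pair of RNA recognition motifs, had the largest decrease of the 10 by a narrow margin over SRSF7. It stood at 136, 132 and 137 CPM in control and at 122, 123 and 117 CPM in SMIP34 libraries. No treated library reached the controls. The estimate was a log2 fold change of -0.16 (edgeR adjusted p = 0.000344, standard error 0.033), or -10.8%.

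SRSF5 (chromosome 14, from 70233829 to 70238722), first described as an insulin-induced gene, was at 165, 158 and 146 CPM in control and at 146, 146 and 151 CPM in SMIP34 libraries. Control replicate 3 lay among the treated libraries, and the gene did not pass, with a log2 fold change of -0.085 (edgeR adjusted p = 0.0758, standard error 0.037). Without control replicate 3 the log2 fold change was -0.13 (adjusted p = 0.0025), and without control replicate 1 the difference was smaller, as the plot of other ways of processing shows. SRSF2 (chromosome 17, from 74730197 to 74733493), the classical factor SC35 of nuclear speckles, stood at 241, 248 and 247 CPM in control and at 244, 240 and 237 CPM in SMIP34 libraries. These ranges overlapped, and the log2 fold change was -0.031 with a 95% interval from -0.086 to 0.024. MFSD11 overlaps exons of SRSF2 on the opposite strand and the microRNA gene MIR636 on the same strand, and the counting used the strand of each read.

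The summed level of the 5 SR genes was 1193, 1176 and 1154 CPM in control and 1094, 1095 and 1095 CPM in SMIP34 libraries. The change of the mean was -6.78%, and the treated sums were nearly equal (SD 0.75) where the control sums were spread (SD 19.9). For the CLK genes the summed level was 65.2 ± 2.41 CPM in control and 71.8 ± 2.99 CPM with SMIP34 (SD, n = 3 each).

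Both TRA2 genes were lower. TRA2A (chromosome 7, from 23544401 to 23571656) was at 62.2, 60.8 and 58.2 CPM in control and at 53.8, 53.9 and 55.4 CPM in SMIP34 libraries, a log2 fold change of -0.15 (edgeR adjusted p = 0.00672, standard error 0.042). TRA2B (chromosome 3, from 185632358 to 185655924), the more abundant paralog and a regulator of SMN2 exon inclusion, was at 234, 235 and 228 CPM in control and at 220, 213 and 219 CPM in SMIP34 libraries. No treated library of either gene reached the lowest control. For TRA2B the log2 fold change was -0.094 (edgeR adjusted p = 0.0125, standard error 0.029). TRA2A missed the threshold once the trend of each library with gene length was removed (log2 fold change -0.10, adjusted p = 0.0594). TRA2B did not pass without SMIP34 replicate 2 (adjusted p = 0.0864).

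Of the 3 CLK genes, CLK4 and CLK1 rose and CLK2 did not pass, at a much lower level than the SR genes and with larger errors. None of the 3 passed with DESeq2, with offsets on GC content or without SMIP34 replicate 2. CLK4 (chromosome 5, from 178029665 to 178054054), the least abundant of the 10, had 168, 224 and 233 counts in control replicates 1, 2 and 3, and 270, 279 and 256 counts in SMIP34 replicates 1, 2 and 3. On the CPM scale these were 8.65, 10.3 and 11.2 in control and 12.3, 12.9 and 11.8 with SMIP34. The controls were spread over a wider range than the treated libraries and did not reach them. The estimated log2 fold change was 0.29 (edgeR adjusted p = 0.02, standard error 0.096), an increase of 22.4%. The gene did not pass with DESeq2 (adjusted p = 0.0769), without control replicate 1 (log2 fold change 0.20, adjusted p = 0.135), without SMIP34 replicate 2 (adjusted p = 0.0814) or with offsets on GC content (adjusted p = 0.069).

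CLK1 (chromosome 2, from 201717732 to 201729467), the best studied of these kinases, was at 27.1, 25.2 and 21.8 CPM in control and at 27.3, 29.0 and 27.4 CPM in SMIP34 libraries. Control replicate 1 lay just under the lowest treated library. Its log2 fold change was 0.18 (edgeR adjusted p = 0.0434, standard error 0.067), an increase of 13.0%. This call was close to the threshold and passed in 8 of 18 other ways of processing. It was lost with DESeq2 (adjusted p = 0.132), and without control replicate 3 the log2 fold change was 0.097 (adjusted p = 0.274). It was also lost without control replicate 2, and without each of the SMIP34 replicates 1, 2 and 3, with adjusted p-values from 0.0601 to 0.159.

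CLK2 (chromosome 1, from 155232659 to 155243281), the member with the most GC-rich exons of the 10 (55.3%, against 37.4% in CLK4), was at 30.8, 31.0 and 29.3 CPM in control and at 29.5, 33.1 and 32.0 CPM in SMIP34 libraries. Its groups overlapped, and its log2 fold change of 0.054 (edgeR adjusted p = 0.509) had a 95% interval from -0.059 to 0.17. To compare the kinases with each other, ratios were taken within each library.

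The log2 ratio of CLK4 to CLK2 was -1.60 ± 0.22 (SD, n = 3) in control and -1.35 ± 0.088 (SD, n = 3) with SMIP34, with overlapping values (exact permutation test, two-sided, p = 0.2, adjusted p = 0.4 over 6 ratios). With 3 libraries against 3 the smallest p such a test can give is 0.1, so that none of the ratios could pass. The ratio of CLK1 to CLK2 differed by 0.13 between the groups and that of CLK1 to CLK4 by -0.12, both with overlapping values, and the latter was 0.050 without control replicate 1. The ratio of SRSF3 to SRSF7 was 1.42 ± 0.021 in control and 1.48 ± 0.038 with SMIP34 (SD, n = 3 each) and did not overlap between the groups (exact p = 0.1, adjusted p = 0.3). TRA2A to TRA2B was -1.94 ± 0.029 (SD, n = 3) in control and lower in SMIP34 libraries, by -0.057, also without overlap (exact p = 0.1, adjusted p = 0.3). SRSF5 to SRSF6 differed by 0.081, with overlap.

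Per length, the level of the 10 genes covered a 32.1-fold range in control cells. Divided by the kilobases of counted exon, SRSF3 stood at 129 ± 2.27 CPM per kb, followed by SRSF5 (94.8 ± 5.90), SRSF2 (82.9 ± 1.24), SRSF7 (69.7 ± 2.20), TRA2B (54.1 ± 0.858), SRSF6 (33.7 ± 0.679) and TRA2A (32.9 ± 1.09, SD, n = 3 each). The kinases were lowest, CLK2 at 14.2 ± 0.423, CLK1 at 6.52 ± 0.708 and CLK4 at 4.01 ± 0.517 CPM per kb. Of these neighbours, SRSF6 and TRA2A overlapped in the control libraries and in the SMIP34 libraries, and the other neighbours did not overlap in either group. The order of the 10 was the same in both groups.

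**Figure D2:**
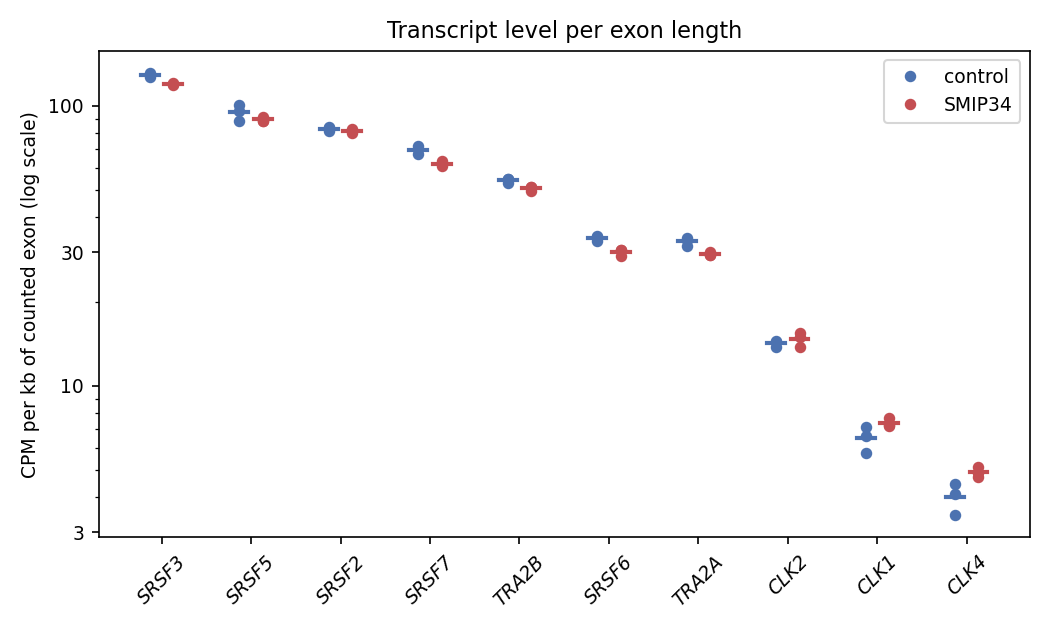
Level of each gene as CPM per kilobase of counted exon, on a log axis, with genes ordered by their control mean. Points are single libraries (blue, control, and red, SMIP34) and short lines are group means. The SR and TRA2 genes lie between 29.1 and 131 CPM per kb, and the CLK genes between 3.45 and 15.5.

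The fold changes of these libraries moved with exon length, and for GC content only the effect of offsets is given. With the tested genes divided by exon length into 10 equal bins, the median was -0.10 for the shortest and 0.12 for the longest. SRSF6, TRA2B and CLK1 fall in bin 7, with a median of 0.030, and SRSF7 and CLK4 in bin 4, with a median of -0.031. SRSF6 and TRA2B lay below the median of their bin, and CLK4 above that of its own. With offsets on length and GC content together, the log2 fold change was -0.22 for SRSF6, -0.16 for SRSF7, -0.15 for SRSF3, -0.15 for TRA2B and 0.28 for CLK4, all past an adjusted p of 0.05. That of CLK1 was 0.13 and did not pass (adjusted p = 0.146).

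**Figure D3:**
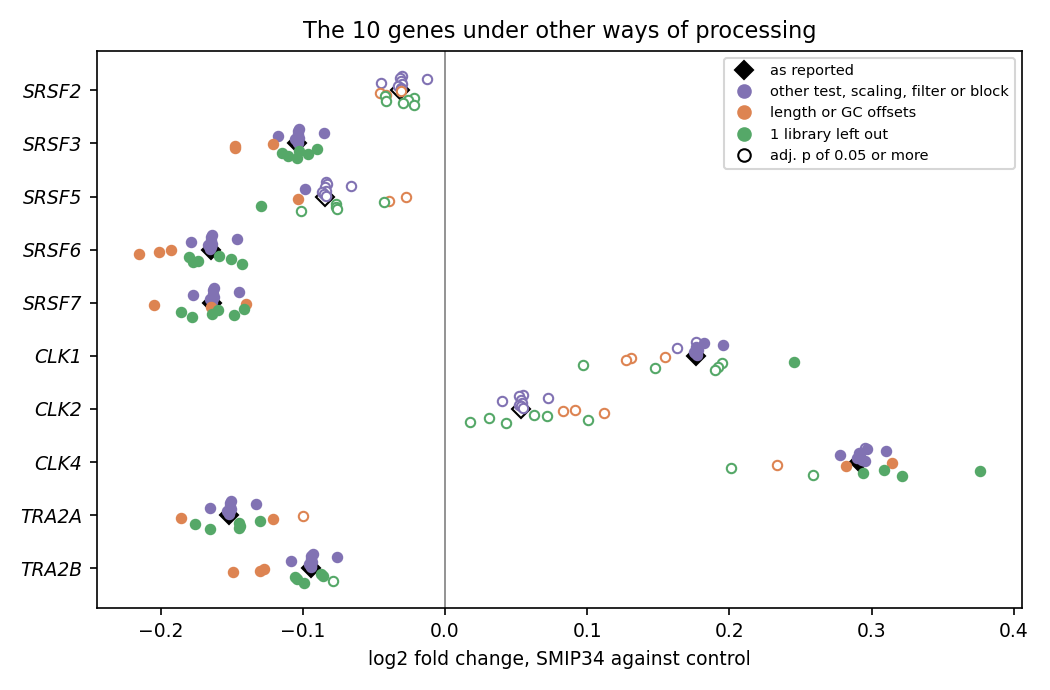
Log2 fold change (SMIP34 against control) of each gene as reported (black diamond) and in 18 other ways of processing, with purple points for another test, scaling, filter or replicate block, orange for offsets on gene length or GC content, and green for 1 library left out. Open symbols had an adjusted p of 0.05 or more. SRSF3, SRSF6 and SRSF7 passed in all 18, while CLK1 passed in 8 and CLK4 in 14.

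The other 7 SR protein genes did not share 1 direction. At an adjusted p under 0.05, SRSF4 and SRSF11 rose, SRSF1 and SRSF8 fell, and 3 did not pass, with a median log2 fold change of 0.0024. SRSF1, the founding member of the family and a proto-oncogene, stood at 394, 381 and 376 CPM in control and at 364, 353 and 365 CPM in SMIP34 libraries, a log2 fold change of -0.088 (edgeR adjusted p = 0.014, standard error 0.028). The lowest of the list was SRSF8, at -0.28 (adjusted p = 6.33e-05). SRSF8 arose as a copy of SRSF2 and its count is uncertain where reads are shared. The highest was SRSF12, at 0.24 and under 2 CPM, which did not pass (adjusted p = 0.473). SRSF4, a relative of SRSF6, was at 139, 131 and 133 CPM in control and at 146, 152 and 150 CPM with SMIP34, and rose by 0.15 on the log2 scale (edgeR adjusted p = 0.000636). Over all 12 SR protein genes, 5 fell and 2 rose, with a median of -0.086.

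Of 12 other kinases and phosphatases that act on SR proteins, 11 were tested. Of these 3 rose, 1 fell and 7 did not pass, with a median log2 fold change of 0.077. CLK3, the remaining CLK kinase, had the largest increase of the list. It was at 27.6, 27.0 and 27.6 CPM in control and at 37.1, 35.3 and 36.8 CPM in SMIP34 libraries. The groups were far apart relative to their spread, with a log2 fold change of 0.41 (edgeR adjusted p = 1.21e-06, standard error 0.053). With offsets on length and GC content it was 0.44 (adjusted p = 1.20e-07), and with DESeq2 0.41 (adjusted p = 7.12e-07). SRPK1, the cytoplasmic kinase that primes SR proteins for nuclear import, rose with a log2 fold change of 0.11 (adjusted p = 0.0112). Its relative SRPK2 was at 0.069 and did not pass (adjusted p = 0.18). Among the catalytic subunits of protein phosphatase 1, which removes these phosphates, PPP1CC rose with a log2 fold change of 0.12 (adjusted p = 0.00183) and PPP1CA fell by 0.11 on the log2 scale (adjusted p = 0.00478). The lowest of the list, DYRK1B, was at -0.15 and did not pass (adjusted p = 0.642).

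SR-related proteins carry the same dipeptide tails without being classical SR proteins, and many build nuclear speckles or join the spliceosome. Of 20 such genes 8 rose, 1 fell and 11 did not pass, with a median log2 fold change of 0.088. The highest was RSRC2, which was at 61.1, 58.5 and 57.2 CPM in control and at 72.6, 75.4 and 76.1 CPM with SMIP34, and rose by 0.34 on the log2 scale (edgeR adjusted p = 2.9e-07, standard error 0.041). SON and SRRM2, large scaffold proteins of nuclear speckles, both had a log2 fold change of 0.32 (adjusted p = 1.27e-09 and 6.93e-08). With offsets on gene length both stood at 0.21, and both passed. The gene that fell was LUC7L3, a factor of the U1 particle, at -0.11 (adjusted p = 0.0226). The number of these genes that rose was between 5 and 12 over the other ways of processing, and the median stayed above 0 in all of them.

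**Figure D4:**
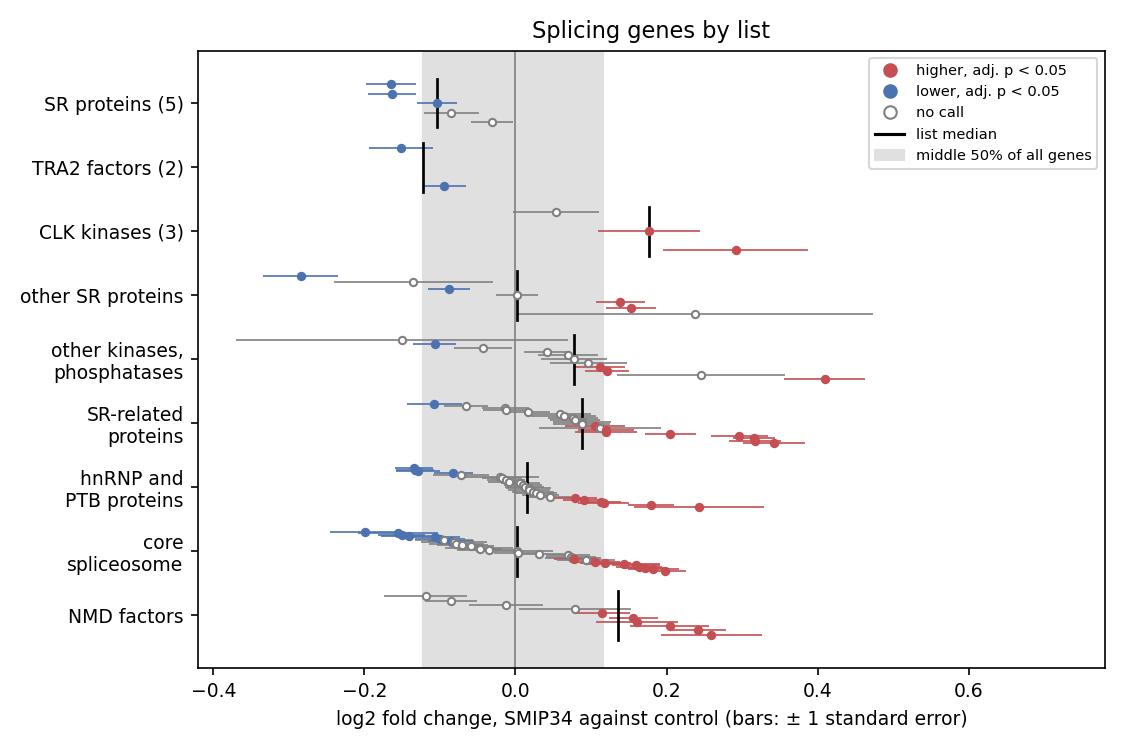
Log2 fold change (SMIP34 against control) of each gene tested in the lists of splicing genes, with bars of 1 standard error. Red points rose and blue points fell at an adjusted p under 0.05, open points did not pass, black lines are list medians and the grey band holds the middle 50% of all genes tested, from -0.12 to 0.12. The medians of the 5 SR genes and of the TRA2 genes lie below 0, and those of all other lists lie above 0. They are small for the hnRNP and PTB genes (0.015), the other SR genes (0.0024) and the core spliceosome (0.0021).

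Among the genes whose pattern was most like that of CLK4, the member with the largest change, were NSFL1C, SUGP2, PWWP2A and SDCCAG8, by Pearson's correlation of log2 CPM over the 6 libraries among 9900 other genes that averaged 10 CPM or more. Their correlations were 0.99 in each case, and 94 genes exceeded 0.95, over points that share libraries and a treatment contrast. SUGP2 is one of the SR-related genes above. It was at 69.5, 74.5 and 74.9 CPM in control and at 78.4, 79.9 and 77.4 CPM with SMIP34. As with CLK4, control replicate 1 was the lowest library of SUGP2.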

How the data were processed

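RNA-seq was available for 3 control and 3 SMIP34 libraries, grouped by their labels. The authors deposited estimated counts, which are fractional read counts per gene without normalization. Per the file headers, featureCounts 1.5.0-p1 counted reads on exons of the UCSC hg19 annotation by strand, at a minimum mapping quality of 2, dividing shared reads. The headers also set the option for read pairs, and whether a count is a read or a pair is not settled by the sources used here. The labels name both an Illumina TruSeq and a stranded NEB preparation, so that counting by strand rests on the headers and the latter. The submitters' processing notes name HISAT2, SAMtools and bcl2fastq, and the study's methods name tophat2 and HTSeq.

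Counts were rounded, filtered with filterByExpr, scaled by TMM (factors from 0.988 to 1.01) and tested under R 4.3.3 by edgeR 4.0.16 (quasi-likelihood), and p-values were adjusted after Benjamini and Hochberg over 13408 genes. Standard errors come from the F statistic. On simulated data with 100 genes changed by 0.3 on the log2 scale, 89 were recovered, and 99 of 100 changed by 0.7, over 13407 genes tested. The simulation used the same dispersion for all genes, and drew the changed genes only from those above a minimum mean count. It also changed a smaller share of genes than was called in the real data. The rates of recovery can therefore differ from those in the real data. Smaller changes, such as those of the 10 genes (at most 0.29 in absolute value), were not simulated. Alternatives were DESeq2 1.42.0, limma 3.58.1 voom, other scalings and filters, a replicate block, edgeR's legacy quasi-likelihood fit, loess offsets (span 0.3) and leaving out each library. Offsets on GC content were added after the data were seen, from GRCh37 sequence, whose chromosome ends no exon of the files exceeded. Figures were drawn with matplotlib 3.10.9.

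The 10 genes were given by name as a family, at a time when earlier results of these data were known. The lists were written with results of other genes of these data known. Named genes are the 10, the extremes of each list, CLK3, SRSF1, SRPK1, SRPK2, PELP1 and the 5 genes most like the member with the largest change, of which 1 is not reported here. Other genes were named after their values were seen. Counts for 4 listed genes stood under older symbols. Intervals cover these libraries only.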

Additional observations from a re-analysis of the deposited data

How the results depend on the processing

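Of the 10 genes, SRSF3, SRSF6 and SRSF7 passed and SRSF2 and CLK2 did not pass under all 18 alternatives, and no gene changed sign. The log2 fold change ranged from -0.15 to -0.085 for SRSF3, from -0.22 to -0.14 for SRSF6, from 0.097 to 0.25 for CLK1 and from 0.20 to 0.38 for CLK4. SRSF5 passed in 3 alternatives, CLK1 in 8, CLK4 in 14, and TRA2A and TRA2B in 17 each. Of the 7 genes that differed, 4 passed at an adjusted p under 0.01 and 0 passed an absolute log2 fold change over 0.5. The share of all genes at an adjusted p under 0.01 is not given here. The number of the 10 that differed was 5 with DESeq2, where 3323 of 12387 genes tested passed. With 1 library left out it was between 4 (without SMIP34 replicate 2) and 7. Without SMIP34 replicate 2, 1890 of all 13555 genes tested rose and 1836 fell. Without control replicate 3, 7 of the 10 and 4647 of all genes passed. Leaving out 1 library gave 6 to 10 called hnRNP and PTB genes, lowest without control replicate 2, and 10 to 19 called core spliceosome genes, lowest without SMIP34 replicate 1. Fewer samples stood in these fits. Deviations from the group means correlated at -0.028, 0.033 and -0.011 between equally numbered libraries, which showed no shared deviation. Such values cannot tell whether equally numbered libraries were handled together. The log2 ratio of CLK1 to CLK4 ranged from -0.29 to 0.050 with 1 library left out. With the replicate number as a block, 7 of the 10 genes and 4432 of all genes passed, against 4645 without it, and 4383 were shared. Of the 10 genes, CLK4 had the fewest counts, 168 to 279 a library, and the largest standard error, 0.096.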

Other observations

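The mRNAs of the NMD machinery, which breaks down transcripts with the stop-carrying exons of SR genes, leaned to higher values. Of 10 NMD factor genes 6 rose, none fell and 4 did not pass by edgeR with an adjusted p below 0.05, with a median log2 fold change of 0.14. At an unadjusted p-value under 0.05, 2 were lower, with DESeq2 4 rose and none fell, and with upper-quartile scaling 1 fell. The highest was UPF3B, an exon junction adaptor, which was at 27.7, 23.9 and 23.3 CPM in control and at 28.1, 32.0 and 29.4 CPM with SMIP34, and rose by 0.26 on the log2 scale (edgeR adjusted p = 0.00361). SMG1, the kinase that phosphorylates UPF1, was at 84.8, 83.6 and 88.0 CPM in control and at 99.6, 99.8 and 104 CPM with SMIP34, and rose by 0.24 (adjusted p = 8.96e-06). UPF3A, the paralog of UPF3B, was the lowest at -0.12 and did not pass (adjusted p = 0.0937). With length offsets 5 rose and 1 fell, and the median was 0.099.

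The core spliceosome was divided. Of 31 genes 9 rose, 7 fell and 15 did not pass, with a median log2 fold change of 0.0021 whose sign changed between alternatives. Of the 9 SF3A and SF3B genes of the U2 particle 5 rose and none fell, and SF3B1, which contacts the branch point, was the highest at 0.20 (adjusted p = 2.5e-06). Of the 7 Sm protein genes, short genes whose products form the rings of spliceosomal RNAs, 3 fell and none rose, with SNRPE the lowest at -0.20 (adjusted p = 0.00158). With length offsets 11 core spliceosome genes rose and 1 fell. Of 24 hnRNP and PTB genes, which often oppose SR proteins at exons, 6 rose, 4 fell and 14 did not pass. PTBP2 was the highest at 0.24 (adjusted p = 0.0291), and HNRNPC the lowest at -0.13 (adjusted p = 0.000148). The mRNA of PELP1, the protein that SMIP34 binds, was at 139 ± 6.50 CPM in control and 156 ± 4.43 CPM with SMIP34 (SD, n = 3 each, edgeR adjusted p = 0.000746). This is mRNA only. By Western blotting, the paper reported less PELP1 protein in endometrial cancer cells treated with SMIP34. Those blots covered several doses and more than 1 treatment time, so that they do not all match these libraries. The paper also reported faster loss of PELP1 protein in a cycloheximide chase and less PELP1 staining in treated xenograft tumors.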
